A study of Homo sapiens with 8 samples.

Results

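The genes described here are 48 type I interferon-stimulated genes, measured by RNA-seq in RMG1, an established line of human ovarian clear cell carcinoma. They were picked by name, as genes that type I interferon is known to induce. Of the 57736 gene IDs in the count table, 48 were these genes, so each listed gene was found. Total RNA was sequenced from 4 groups of 2 libraries. The wild-type group had ARID1A and CAPH2 intact. The knockout group was made by CRISPR targeting of ARID1A, with CAPH2 intact. The shControl group carried a control shRNA with ARID1A intact, and the shCAPH2 group carried an shRNA that knocks down CAPH2, also with ARID1A intact. Whether the knockout or knockdown cells were a single clone or a pool is not given in the labels, which name no interferon treatment. ARID1A belongs to the SWI/SNF complex, which remodels chromatin, and is often mutated in this cancer. CAPH2 is the protein made from NCAPH2 and is part of condensin II, a complex that folds chromosomes. The series also holds ChIP-seq and Hi-C by its design text, which are not analysed here.

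Type I interferons bind the receptor made of IFNAR1 and IFNAR2 and activate the kinases JAK1 and TYK2. These phosphorylate STAT proteins, among them STAT2, which joins IRF9 in the factor ISGF3. ISGF3 binds the interferon-stimulated response element (ISRE) in the promoters of its target genes. The products sense viral RNA, tag proteins with the small modifier ISG15, block translation or virus entry and feed back on the signal. STAT2 and IRF9 are themselves induced, and epithelial tumour cells can hold a low level of such genes with no interferon added.

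Since the pathway acts through the ISRE, the promoters of 4 genes are shown before the values. They belong to the genes with a match to the ISRE core, a mean of at least 1 CPM (counts per library scaled to a common total) and the largest absolute fold change among those called in the knockdown. Each is the 250 bases before the transcription start, 5′ to 3′ on the gene's strand, from RefSeq on GRCh38.p14. Capitals mark bases in a match to the ISRE core, which is GAAA, any 2 bases and a further GAAA, or on the other strand TTTC, any 2 bases and a further TTTC. The positions are chr21:41431800-41432049 on the plus strand for MX1, chr11:313790-314039 on the plus strand for IFITM1, chr10:89392373-89392622 on the plus strand for IFIT1 and chr1:27672193-27672442 on the minus strand for IFI6. For MX1 the table gives 3 start sites and the window with the match is shown.
MX1: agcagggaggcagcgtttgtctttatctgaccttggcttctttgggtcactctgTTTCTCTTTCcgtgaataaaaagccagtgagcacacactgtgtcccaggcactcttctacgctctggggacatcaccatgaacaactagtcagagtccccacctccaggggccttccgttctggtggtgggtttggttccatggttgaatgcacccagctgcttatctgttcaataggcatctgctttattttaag
IFITM1: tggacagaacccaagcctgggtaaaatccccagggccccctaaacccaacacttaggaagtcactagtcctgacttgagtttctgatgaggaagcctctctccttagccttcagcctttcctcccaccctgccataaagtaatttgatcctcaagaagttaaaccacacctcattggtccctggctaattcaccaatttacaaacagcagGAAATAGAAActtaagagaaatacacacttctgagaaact
IFIT1: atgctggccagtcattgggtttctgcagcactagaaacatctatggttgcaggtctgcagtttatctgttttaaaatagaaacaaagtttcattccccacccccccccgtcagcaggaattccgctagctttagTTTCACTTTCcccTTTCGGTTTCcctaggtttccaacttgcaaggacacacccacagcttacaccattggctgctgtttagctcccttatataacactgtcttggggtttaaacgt
IFI6: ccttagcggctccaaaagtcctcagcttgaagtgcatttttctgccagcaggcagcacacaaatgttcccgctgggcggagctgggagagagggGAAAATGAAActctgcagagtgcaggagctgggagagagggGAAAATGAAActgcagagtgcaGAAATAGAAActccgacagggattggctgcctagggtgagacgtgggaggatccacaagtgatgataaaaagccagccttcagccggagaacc

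In the IFI6 window 3 matches begin 156, 115 and 93 bases before the start, and the first and second match read GAAAATGAAA. The 2 matches of IFIT1 begin 116 and 103 bases before its start and face the other way. The match of IFITM1 begins 40 bases before the start and that of MX1 196 bases before it. Over all genes of the promoter table, 1014 of 27305 genes (3.71%) held this core in any of their windows of the same length. Of the 48 interferon-stimulated genes, 40 had a window and 23 of these (57.5%) held it. The core TTCNNNGAA of the gamma-activated site, an element of the interferon gamma response, was in the window of 11 of the 40 genes (27.5%) and of 8.09% of all genes. Both motifs were searched on both strands, a match is a run of letters and not a shown binding site, and overlapping matches were counted separately. IFIT2, IRF7, TRIM22, OASL, LY6E, IFITM2, USP18 and OAS2 were not in the promoter table.

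Total counts lay between 24559547 and 37378691 per library, with the lowest totals in the wild-type libraries, and log2 CPM of the libraries within a group correlated at 0.981 to 0.987. ARID1A was at 8.80 and 12.1 CPM in the wild-type libraries and 6.66 and 5.61 CPM in the knockout libraries, a log2 fold change of −0.77 ± 0.16 (SE, edgeR adjusted p = 0.00274). Its mRNA was therefore lower but present in the cells labelled as knockout. NCAPH2 was at 24.0 and 25.8 CPM in the shRNA control and 8.98 and 8.74 CPM in the knockdown, a log2 fold change of −1.49 ± 0.10 (SE, edgeR adjusted p = 1.84e-06). NCAPH2 was also lower in the knockout than in wild type by a log2 fold change of −0.34 (edgeR adjusted p = 0.0144). The matched markers of the ovarian clear cell epithelium summed to 3680 to 4040 CPM in wild type, 2580 to 2600 in the knockout, 4350 to 4360 in the shRNA control and 5090 to 5110 in the knockdown. Leukocyte markers summed to 0.978 to 0.992, 2.32 to 2.96, 1.01 to 1.08 and 0.914 to 1.26 CPM in the same order, and CD3E, CLEC4C and LILRA4 were at 0 in all 8 libraries. Fibroblast markers summed to 0.0413 to 0.29 CPM in wild type, 0.603 to 0.914 in the knockout, 0.0309 to 0.223 in the shRNA control and 0.0946 to 0.193 in the knockdown, and endothelial markers to at most 0.124 CPM in any library. In bulk RNA, fewer cells with a transcript and less of it per cell cannot be told apart.

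Levels are given as CPM after scaling by trimmed means (TMM), and a change as a log2 fold change with its standard error (SE). A gene was called where the Benjamini-Hochberg adjusted p of edgeR's quasi-likelihood test was under 0.05 over 16657 tested genes. Of the 48 interferon-stimulated genes 43 passed the filter on low counts. IFI27, IFI44L, BST2, XAF1 and CMPK2 did not pass it. OAS2 and RSAD2 reached the level of the filter, 0.309 CPM, only in the knockdown libraries, so their passing is tied to the group where they were high. A single count was worth 0.0268 to 0.0407 CPM before scaling, and a count of 0 allows a level of up to 0.0803 to 0.122 CPM (3 counts, counting error only).

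The 48 genes summed to 964.8 and 976.8 CPM in the wild-type libraries, 891.8 and 882.2 CPM in the knockout, 985.3 and 991.2 CPM in the shRNA control and 1254 and 1226 CPM in the knockdown. The sums of the knockdown lay above those of the other 6 libraries and the sums of the knockout below them. Per kilobase of exon, the highest wild-type means were 19.4 CPM for IFI6, a mitochondrial and endoplasmic reticulum protein that limits cell death and virus replication, 14.6 for PARP14, 13.3 for ADAR, 11.9 for HERC5, 11.8 for EIF2AK2 and 11.7 for ISG15. In the knockdown IFI6 reached 39.1 CPM per kilobase and ISG15 27.9, above PARP14 at 17.9. In the knockout IFI6 was at 4.23 CPM per kilobase, below its 19.4 in wild type. At the other end, OAS1 had 1 count, and IFI44L, XAF1 and CMPK2 none, in the 2 wild-type libraries together. By group means, 31 of the 43 tested genes were highest in the knockdown, 8 in the knockout, 3 in the shRNA control and 1, HERC5, in wild type. The lowest mean lay in wild type for 18 genes, in the knockout for 17, in the shRNA control for 7 and in the knockdown for HERC5 alone. The same counts over all tested genes were not made, so no share stands beside these numbers. OAS2 and RSAD2 are among the 31 genes.

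**Figure D1:**
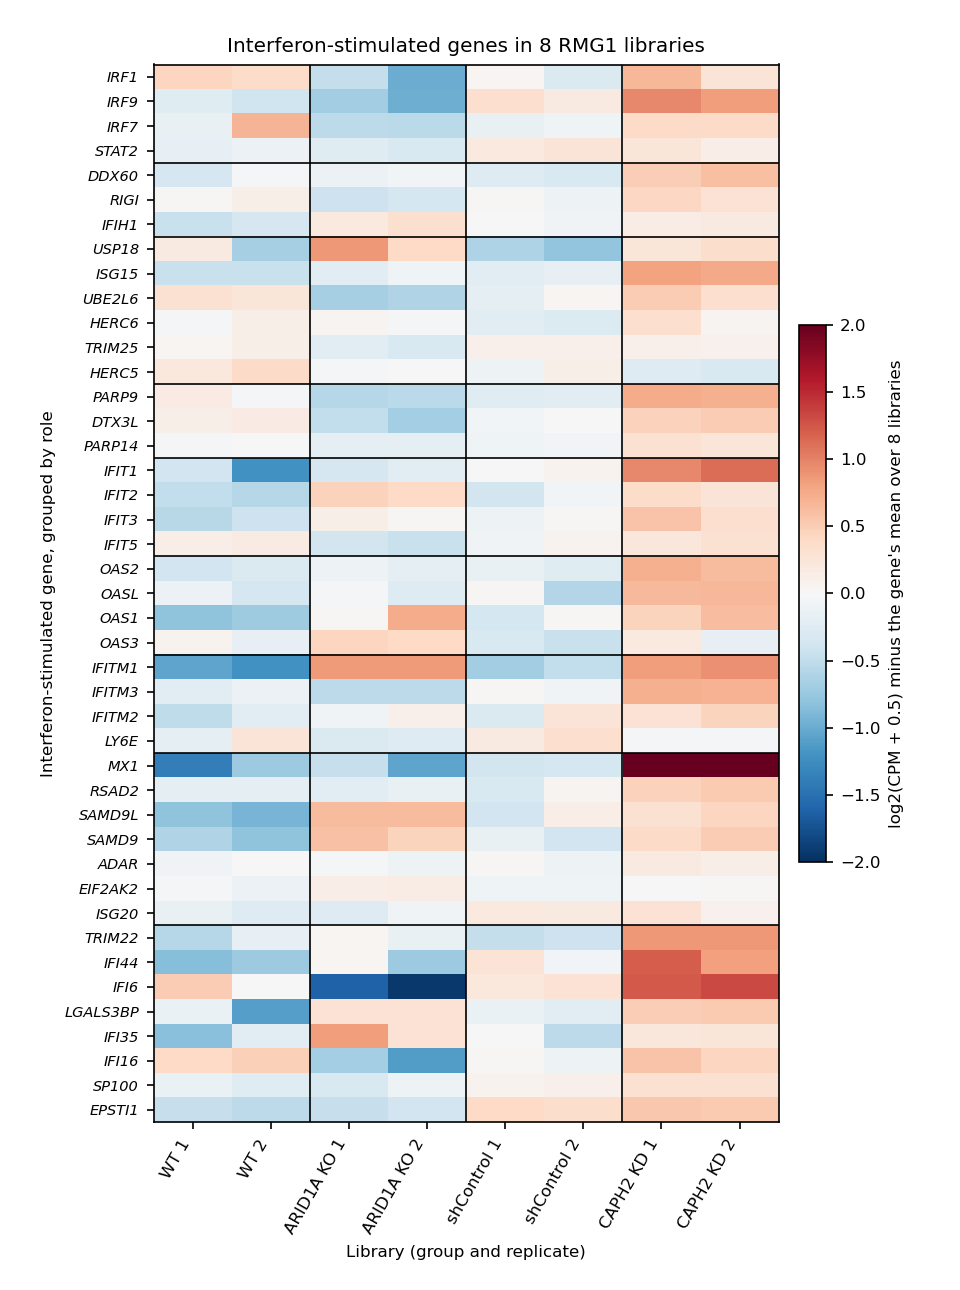
Each row is 1 of the 43 tested interferon-stimulated genes, grouped by role, each column a library, and colour is log2(CPM + 0.5) minus the mean of that gene over the 8 libraries. The 2 knockdown columns are the highest for most genes, and the knockout columns are the lowest for some genes (IFI6, IFI16) and the highest for others (SAMD9L, IFIH1).

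The heatmap of centred levels shows that the 2 libraries of a group had similar patterns over these genes. The knockout columns were mixed, with IFI6, IFI16, UBE2L6 and the genes next to PARP9 low and IFITM1, IFIT2 and SAMD9 high. The knockdown columns were high in most role groups.

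Much of the module was higher after knockdown of CAPH2. Against the shRNA control, 22 of the 43 tested interferon-stimulated genes rose (51.2%) and 1 fell (2.33%), while over all 16657 genes 7.62% rose and 8.22% fell, 15.8% in either direction. Their median log2 fold change was 0.63 beside 0.00 over all genes, and 39 had a positive value. The largest rises among genes of at least 1 CPM were those of MX1, TRIM22 and IFITM1, and the ubiquitin-like modifier ISG15 rose as well. DESeq2 called 20 higher and 1 lower, beside 1039 and 1152 of the 29952 counted genes. An unadjusted p under 0.05 held for 30 higher and 2 lower, and its share over all genes was not counted. In 38 genes both knockdown libraries lay above both control libraries (29.8% of all genes did), and in 2 both lay below (29.2%). OAS2 and RSAD2, which reached the level of the filter only in the knockdown, are among the 43, the 39 and these 38 genes. OAS2 is also among the 22 rises, so these counts are not independent of the filter. The epithelial marker sum was higher in the knockdown too, at 5090 to 5110 CPM against 4350 to 4360. SPP1 of this list rose from a mean of 2350 to 3220 CPM, while PAX8 and CDH6 of the same list fell (log2 fold changes of −0.49 and −1.02, edgeR adjusted p of 6.1e-05 and 3.87e-07). Their part in the changes of the module was not tested.

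MX1, a GTPase that traps viral nucleocapsids, was at 0.928 and 0.949 CPM in the shRNA control libraries and at 7.66 and 8.03 CPM in the knockdown libraries. The groups did not overlap, and MX1 rose by 3.06 ± 0.35 on the log2 scale (edgeR adjusted p = 0.000117). Among the other genes that act on viral RNA or nucleotides, SAMD9, which restricts poxviruses, went from 10.5 and 8.82 CPM to 15.3 and 16.8 CPM, a log2 fold change of 0.74 ± 0.12 (edgeR adjusted p = 0.00154). ADAR, which converts adenosine to inosine in double-stranded RNA, was at 135 and 125 CPM in the control and 150.3 and 146 CPM in the knockdown. Its log2 fold change was 0.19 ± 0.06 (edgeR adjusted p = 0.0427). ADAR missed the threshold without the first or the second control library (adjusted p of 0.0749 and 0.328) and without the first or the second knockdown library (0.242 and 0.137). In all, 3 of the 7 tested genes of this role rose. EIF2AK2, the kinase PKR, was at 126 and 126 CPM in the control and 135 and 137 CPM in the knockdown and was not called.

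The IFIT proteins bind viral RNA that lacks the host's cap methylation. Of their 4 genes, 3 rose and IFIT5 did not pass. IFIT1 was at 4.86 and 5.14 CPM in the control and at 9.96 and 11.1 CPM in the knockdown, a log2 fold change of 1.07 ± 0.22 (edgeR adjusted p = 0.00648). It missed the threshold without the first control library (adjusted p = 0.0626) and without the second knockdown library (adjusted p = 0.0516). IFIT2 went from 4.43 and 5.58 CPM to 7.66 and 7.09 CPM, a log2 fold change of 0.56 ± 0.15 (edgeR adjusted p = 0.0306), and DESeq2 did not call it (adjusted p = 0.0872). Without the first control library IFIT2 was at a log2 fold change of 0.40 (adjusted p = 0.235), and it also missed the threshold without the first or the second knockdown library (0.16 and 0.0804). IFIT3 went from 8.48 and 9.35 CPM to 13.9 and 11.7 CPM, a log2 fold change of 0.52 ± 0.13. It passed with all libraries (edgeR adjusted p = 0.0161) and missed the threshold without the first or the second control library (0.138 and 0.0527) or the first knockdown library (0.165). Both knockdown libraries lay above both control libraries for all 3 genes. IFIT1, IFIT2 and IFIT3 overlap LIPA on the opposite strand, whose log2 fold change was 0.45 (edgeR adjusted p = 0.0589), so their reads cannot be fully told apart where the strand setting is not given.

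Genes of the ISG15 system, which attaches the small protein ISG15 to other proteins, did not move as 1 block. Of its 6 genes, 4 rose and 1 fell. ISG15 was at 12.7 and 13.3 CPM in the control libraries and at 26.7 and 25.8 CPM in the knockdown libraries, a log2 fold change of 1.01 ± 0.09 (edgeR adjusted p = 1.47e-05). UBE2L6, the E2 enzyme that carries ISG15, went from 11.9 and 13.9 CPM to 19.5 and 17.3 CPM, a log2 fold change of 0.51 ± 0.11 (edgeR adjusted p = 0.00735). UBE2L6 missed the threshold without the first control library (adjusted p = 0.0967) and without the first knockdown library (adjusted p = 0.0894). HERC5, the main E3 ligase for ISG15 in human cells, went the other way, from 43.0 and 50.1 CPM in the control to 38.4 and 37.4 CPM in the knockdown. Its log2 fold change was −0.30 ± 0.08 (edgeR adjusted p = 0.0341), and the call was lost without the second control library (−0.18, adjusted p = 0.308) and without the first or the second knockdown library (adjusted p of 0.11 and 0.181). HERC6 and the ISG15 protease USP18 were also called higher, by 0.47 and 1.95 on the log2 scale, and neither call held without each library in turn. HERC6 missed the threshold without the first or the second control library (adjusted p of 0.0713 and 0.106) or the first knockdown library (0.164). USP18 missed it without any 1 of the 4 libraries (adjusted p of 0.119, 0.193, 0.102 and 0.142, control libraries first).

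The PARP9 and DTX3L proteins form a complex that modifies histones and raises interferon responses, and PARP14 lies next to them on chromosome 3. All 3 genes rose. PARP9 was at 40.0 and 41.0 CPM in the control and at 79.7 and 78.0 CPM in the knockdown, a log2 fold change of 0.96 ± 0.07 (edgeR adjusted p = 3.54e-06). DTX3L went from 49.6 and 51.5 CPM to 71.6 and 73.5 CPM, a log2 fold change of 0.52 ± 0.07 (edgeR adjusted p = 0.000337). PARP14, an ADP-ribosyltransferase, went from 147 and 149.6 CPM to 193 and 184 CPM, a log2 fold change of 0.34 ± 0.05 (edgeR adjusted p = 0.000815). The control and knockdown libraries did not overlap for any of these 3 genes. PARP9 and DTX3L overlap on opposite strands, so reads of the shared stretch can be assigned to either.

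Among membrane proteins that block virus entry, IFITM1 and IFITM3 rose and IFITM2 and LY6E were not called. IFITM1 was at 3.002 and 3.55 CPM in the control and at 9.58 and 10.2 CPM in the knockdown, a log2 fold change of 1.59 ± 0.15 (edgeR adjusted p = 2.27e-05). IFITM3 went from 8.02 and 7.48 CPM to 13.2 and 12.99 CPM, a log2 fold change of 0.76 ± 0.11 (edgeR adjusted p = 0.000845). Control and knockdown libraries were apart for both. The IFITM genes are near-identical neighbours, and reads that match more than 1 of them are shared out by estimation, so single values are uncertain.

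In the group of nuclear and other antiviral genes, 3 of 8 tested genes rose. TRIM22, a ubiquitin ligase of the nucleus and cytoplasm, was at 0.836 and 0.894 CPM in the control and at 2.90 and 2.90 CPM in the knockdown, a log2 fold change of 1.74 ± 0.31 (edgeR adjusted p = 0.00264). TRIM22 overlaps TRIM5 on the opposite strand, and TRIM5 had a log2 fold change of 0.11 (edgeR adjusted p = 0.568). IFI6 was at 15.9 and 16.9 CPM in the control and at 32.8 and 34.8 CPM in the knockdown, a log2 fold change of 1.04 ± 0.14 (edgeR adjusted p = 0.000403). IFI16, a nuclear DNA sensor, went from 8.29 and 7.51 CPM to 12.3 and 11.1 CPM, a log2 fold change of 0.57 ± 0.15 (edgeR adjusted p = 0.026). It missed the threshold without any 1 of the 4 libraries (adjusted p of 0.0828, 0.169, 0.164 and 0.0663, control libraries first). None of these groups overlapped. EPSTI1 was at 56.1 and 54.5 CPM in the control and 62.4 and 61.7 CPM in the knockdown and was not called (edgeR adjusted p = 0.0904).

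Of the RNA sensors, DDX60 and RIGI rose and IFIH1 was not called. DDX60, a helicase that aids RIG-I signalling, was at 14.8 and 14.3 CPM in the control and at 25.3 and 27.3 CPM in the knockdown, a log2 fold change of 0.86 ± 0.10 (edgeR adjusted p = 0.000183). RIGI, which detects RNA with a free 5′ triphosphate, went from 29.9 and 27.4 CPM to 39.5 and 35.9 CPM, a log2 fold change of 0.40 ± 0.08 (edgeR adjusted p = 0.00505). RIGI missed the threshold without the second control library (adjusted p = 0.0741) and without the first knockdown library (adjusted p = 0.0772). Among the transcription factors, IRF9 rose from 11.1 and 9.97 CPM to 17.4 and 16.03 CPM, a log2 fold change of 0.67 ± 0.13 (edgeR adjusted p = 0.00437). Its call was lost without the second control library (adjusted p = 0.0568) and without the first knockdown library (adjusted p = 0.0511). STAT2, its partner in ISGF3, was at 39.3 and 41.1 CPM in the control and at 40.4 and 37.7 CPM in the knockdown, and those libraries overlapped. IRF1 and IRF7 had log2 fold changes of 0.67 and 0.63 and were not called (edgeR adjusted p of 0.0848 and 0.242).

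The OAS enzymes make the second messenger that activates RNase L. OAS2 was the 1 of 4 that was called, at 0.0928 and 0.0558 CPM in the control and 0.567 and 0.516 CPM in the knockdown, a log2 fold change of 2.81 ± 0.79 (edgeR adjusted p = 0.0334). That rests on a few counts, passing the filter only in the knockdown, and OAS2 was not called without any 1 of the 4 libraries (adjusted p of 0.188, 0.264, 0.183 and 0.162, control libraries first) or with no filter (0.0779). DESeq2 gave OAS2 no adjusted p and called no gene of the 4. At an unadjusted p under 0.05, edgeR had 3 of the 4 higher. OAS1, OAS3 and OASL had log2 fold changes of 1.39, 0.46 and 1.51 and adjusted p-values of 0.189, 0.162 and 0.0746. In all, 11 of the 22 rises were called again when each of the 4 libraries was left out in turn: ISG15, MX1, IFI6, DDX60, IFITM1, IFITM3, TRIM22, PARP9, PARP14, DTX3L and SAMD9. The number of rises was 13 without the first control library, 14 without the second, 12 without the first knockdown library and 16 without the second, from 22 with all 4.

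**Figure D2:**
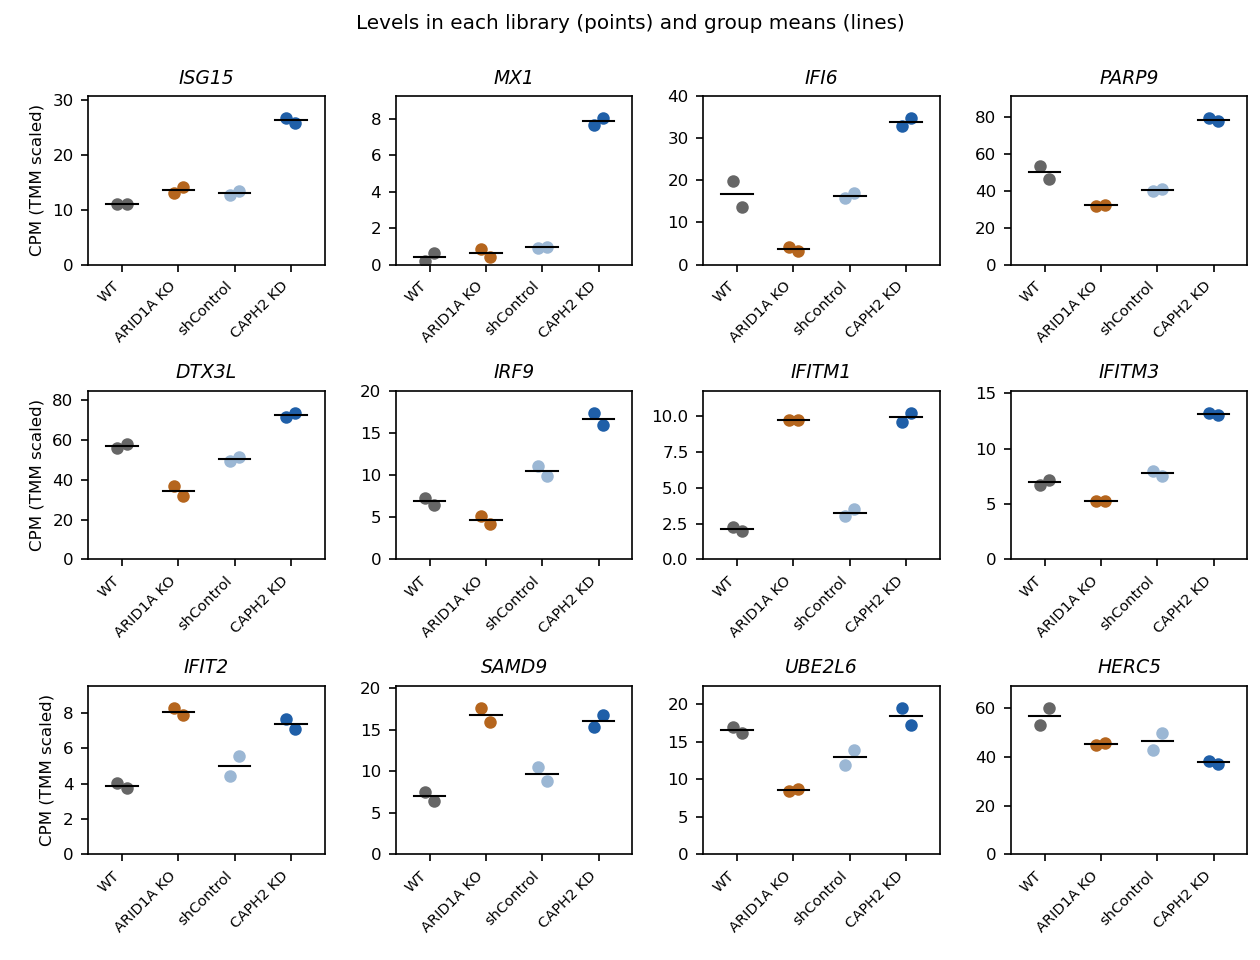
Each panel shows 1 of 12 interferon-stimulated genes, with CPM on a linear axis from 0, a point for each library and a line at the mean of each group. PARP9, DTX3L, IRF9 and UBE2L6 have the knockout lowest and the knockdown highest, whereas for IFITM1, IFIT2 and SAMD9 both are above their controls.

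In the knockout of ARID1A the module held both rises and falls, as all genes did. Against wild type, 10 of the 43 tested interferon-stimulated genes rose (23.3%) and 14 fell (32.6%), while over all 16657 genes 16.8% rose and 17.8% fell, 34.5% in either direction. Their median log2 fold change was 0.08 beside 0.00 over all genes, with 24 positive and 19 negative values. IFITM1, SAMD9 and IFIT2 were among the rises, and IFI6, IFI16, IRF1 and the PARP9 and DTX3L pair among the falls. DESeq2 called 9 higher and 12 lower, beside 2299 and 2410 of the 29952 counted genes. An unadjusted p under 0.05 held for 13 higher and 15 lower, and its share over all genes was not counted. In 19 genes both knockout libraries lay above both wild-type libraries (32.7% of all genes did), and in 16 both lay below (31.9%).

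Among the transcription factors, 3 of 4 fell. IRF1, which drives many of these genes without ISGF3, was at 5.41 and 5.14 CPM in the wild-type libraries and at 2.66 and 1.70 CPM in the knockout libraries, a log2 fold change of −1.28 ± 0.25 (edgeR adjusted p = 0.00204). Its antisense neighbour IRF1-AS1 had a log2 fold change of −3.93 (edgeR adjusted p = 0.00622) at a mean of 0.22 CPM. IRF7, which amplifies the production of interferon alpha, went from 1.53 and 3.11 CPM to 1.07 and 1.04 CPM, a log2 fold change of −1.14 ± 0.34 (edgeR adjusted p = 0.0226). The wild-type libraries of IRF7 were far apart, and without the second one its log2 fold change was −0.53 (adjusted p = 0.305). IRF7 also missed the threshold without the first or the second knockout library (adjusted p of 0.0806 and 0.0945) and when the 4 compared libraries were fitted alone (0.0549). IRF9 went from 7.32 and 6.48 CPM to 5.21 and 4.18 CPM, a log2 fold change of −0.55 ± 0.15 (edgeR adjusted p = 0.0123), and was lost without the first wild-type library (adjusted p = 0.0621) or the second knockout library (adjusted p = 0.11). STAT2 was at 30.5 and 31.5 CPM in wild type and 28.8 and 27.5 CPM in the knockout and was not called (edgeR adjusted p = 0.157).

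The RNA sensors moved in opposite directions. RIGI fell from 30.0 and 31.9 CPM in wild type to 21.8 and 22.9 CPM in the knockout, a log2 fold change of −0.47 ± 0.08 (edgeR adjusted p = 0.000877). IFIH1, the sensor MDA5 for long double-stranded RNA, rose from 5.79 and 6.27 CPM to 9.32 and 10.2 CPM, a log2 fold change of 0.69 ± 0.12 (edgeR adjusted p = 0.00114). DDX60 had overlapping libraries, 14.0 and 17.3 CPM against 16.3 and 17.2 CPM. The groups were apart for RIGI and IFIH1.

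The 3 genes around PARP9 fell in the knockout. DTX3L was at 55.9 and 57.9 CPM in wild type and at 36.6 and 32.1 CPM in the knockout, a log2 fold change of −0.73 ± 0.07 (edgeR adjusted p = 1.17e-05). PARP9 went from 53.6 and 46.5 CPM to 31.8 and 32.4 CPM, a log2 fold change of −0.64 ± 0.07 (edgeR adjusted p = 4.04e-05). PARP14 went from 151 and 154 CPM to 137 and 138 CPM, a log2 fold change of −0.16 ± 0.05 (edgeR adjusted p = 0.0388). The groups were apart for all 3 genes, but PARP14 missed the threshold without the second wild-type library (adjusted p = 0.0696) and without the first or the second knockout library (0.154 and 0.142). PARP14 was also not called by DESeq2 (adjusted p = 0.0613), with no filter (0.0743) or with the 4 compared libraries fitted alone (0.0958).

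In the ISG15 system, the modifier itself rose while 3 of the other 5 genes fell. UBE2L6 was at 16.9 and 16.2 CPM in wild type and at 8.41 and 8.77 CPM in the knockout, a log2 fold change of −0.95 ± 0.11 (edgeR adjusted p = 5.32e-05). TRIM25, the ubiquitin ligase that helps activate RIG-I, went from 92.6 and 97.3 CPM to 76.7 and 72.9 CPM, a log2 fold change of −0.34 ± 0.06 (edgeR adjusted p = 0.000556). Both genes had groups that did not overlap. HERC5 went from 53.3 and 60.3 CPM to 44.9 and 45.6 CPM, a log2 fold change of −0.33 ± 0.08 (edgeR adjusted p = 0.01), and missed the threshold without the second wild-type library (adjusted p = 0.0681) or without the first or the second knockout library (0.0627 and 0.0515). ISG15 was at 10.95 and 10.97 CPM in wild type and at 12.99 and 14.2 CPM in the knockout, a log2 fold change of 0.31 ± 0.09 (edgeR adjusted p = 0.0244). The small rise of ISG15 was not called by DESeq2 (adjusted p = 0.103), nor without the first or the second wild-type library (0.0668 and 0.0717) or the second knockout library (0.165). The call was also lost with no filter on low counts (0.0536) and with the 4 compared libraries fitted alone (0.0781). TRIM25 overlaps DGKE and C17orf67.

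Among the membrane proteins, neighbours on chromosome 11 moved apart. IFITM1 rose from 2.23 and 1.96 CPM in wild type to 9.76 and 9.74 CPM in the knockout, a log2 fold change of 2.22 ± 0.16 (edgeR adjusted p = 1.03e-06). IFITM3 went from 6.74 and 7.17 CPM to 5.29 and 5.28 CPM, a log2 fold change of −0.40 ± 0.12 (edgeR adjusted p = 0.0276). The groups were apart for both genes, and IFITM2 was not called (log2 fold change 0.47, edgeR adjusted p = 0.237). The fall of IFITM3 was not called by DESeq2 (adjusted p = 0.149), nor without the second wild-type library (0.128) or without the first or the second knockout library (0.0939 and 0.103). It was also lost with no filter (0.0745) and with the 4 compared libraries fitted alone (0.0707). Up to 20 tested neighbours on each side of IFITM3 had a median log2 fold change of −0.23, which leaves −0.17 for IFITM3 after subtraction.

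Of the IFIT genes, 2 rose, 1 fell and IFIT1 was not called. IFIT2 was at 4.01 and 3.77 CPM in wild type and at 8.28 and 7.86 CPM in the knockout, a log2 fold change of 1.05 ± 0.16 (edgeR adjusted p = 0.000349). IFIT3 went from 6.08 and 6.74 CPM to 9.95 and 9.30 CPM, a log2 fold change of 0.58 ± 0.13 (edgeR adjusted p = 0.00551). IFIT5 fell from 14.8 and 15.2 CPM to 10.4 and 9.82 CPM, a log2 fold change of −0.58 ± 0.10 (edgeR adjusted p = 0.000916). Each of these 3 genes had groups that did not overlap. Tested genes around IFIT5 had a median log2 fold change of −0.37, which leaves −0.20 after subtraction, whereas IFIT2 and IFIT3 rose among neighbours with medians of −0.44 and −0.42. The overlapping gene LIPA had a log2 fold change of 0.17 (edgeR adjusted p = 0.43).

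The effectors on RNA and nucleotides gave 3 rises among 7 tested genes. SAMD9 rose from 7.48 and 6.45 CPM in wild type to 17.6 and 15.96 CPM in the knockout, a log2 fold change of 1.27 ± 0.13 (edgeR adjusted p = 1.34e-05). Its neighbour SAMD9L went from 0.124 and 0.0724 CPM to 1.21 and 1.201 CPM, a log2 fold change of 3.58 ± 0.60 (edgeR adjusted p = 0.000766). Groups did not overlap for either gene. EIF2AK2 was at 130.0 and 123 CPM in wild type and 146 and 148 CPM in the knockout, a log2 fold change of 0.22 ± 0.05 (edgeR adjusted p = 0.00738), of which 0.06 remained after subtracting the median of its neighbours, and it missed the threshold without the second knockout library (adjusted p = 0.0582). MX1 had overlapping libraries, 0.207 and 0.616 CPM against 0.850 and 0.392 CPM. OAS1 had 1 count in the wild-type libraries together and was at 0.384 and 0.966 CPM in the knockout. Its ratio of 35.3 has an exact 95% counting interval of 6.06 to 1420, and it was called (edgeR adjusted p = 0.0034).

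In the group of nuclear and other antiviral genes, IFI6 and IFI16 fell and IFI35 rose. IFI6 was at 19.7 and 13.8 CPM in wild type and at 4.11 and 3.21 CPM in the knockout, a log2 fold change of −2.19 ± 0.17 (edgeR adjusted p = 2.02e-06). IFI16 went from 10.9 and 11.4 CPM to 4.91 and 3.47 CPM, a log2 fold change of −1.42 ± 0.16 (edgeR adjusted p = 3.85e-05). Both knockout libraries were far below both wild-type libraries for these 2 genes. IFI35, a partner of NMI, went from 0.372 and 0.833 CPM to 2.27 and 1.41 CPM, a log2 fold change of 1.59 ± 0.46 (edgeR adjusted p = 0.0195). It missed the threshold without the first wild-type library (adjusted p = 0.104) and without the first knockout library (adjusted p = 0.142). Of the calls in the knockout, 7 of the 10 rises and 9 of the 14 falls were called again when each of the 4 libraries was left out in turn. Marker sums moved in the knockout as well. The epithelial sum was 2580 to 2600 CPM against 3680 to 4040 in wild type, with SPP1, KRT8, NAPSA and CDH6 called lower and EPCAM higher. The leukocyte sum was 2.32 to 2.96 CPM against 0.978 to 0.992, with PTPRC at 2.25 and 1.98 CPM against 0.0413 and 0 (edgeR adjusted p = 0.000238), CD14 lower (log2 fold change −4.56, edgeR adjusted p = 0.00368) and CD3E, CLEC4C and LILRA4 at 0. The fibroblast sum was 0.603 to 0.914 CPM against 0.0413 to 0.29, with 13 and 27 counts of LUM in the knockout and 0 in wild type. The part of these markers in the changes of the module was not tested.

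**Figure D3:**
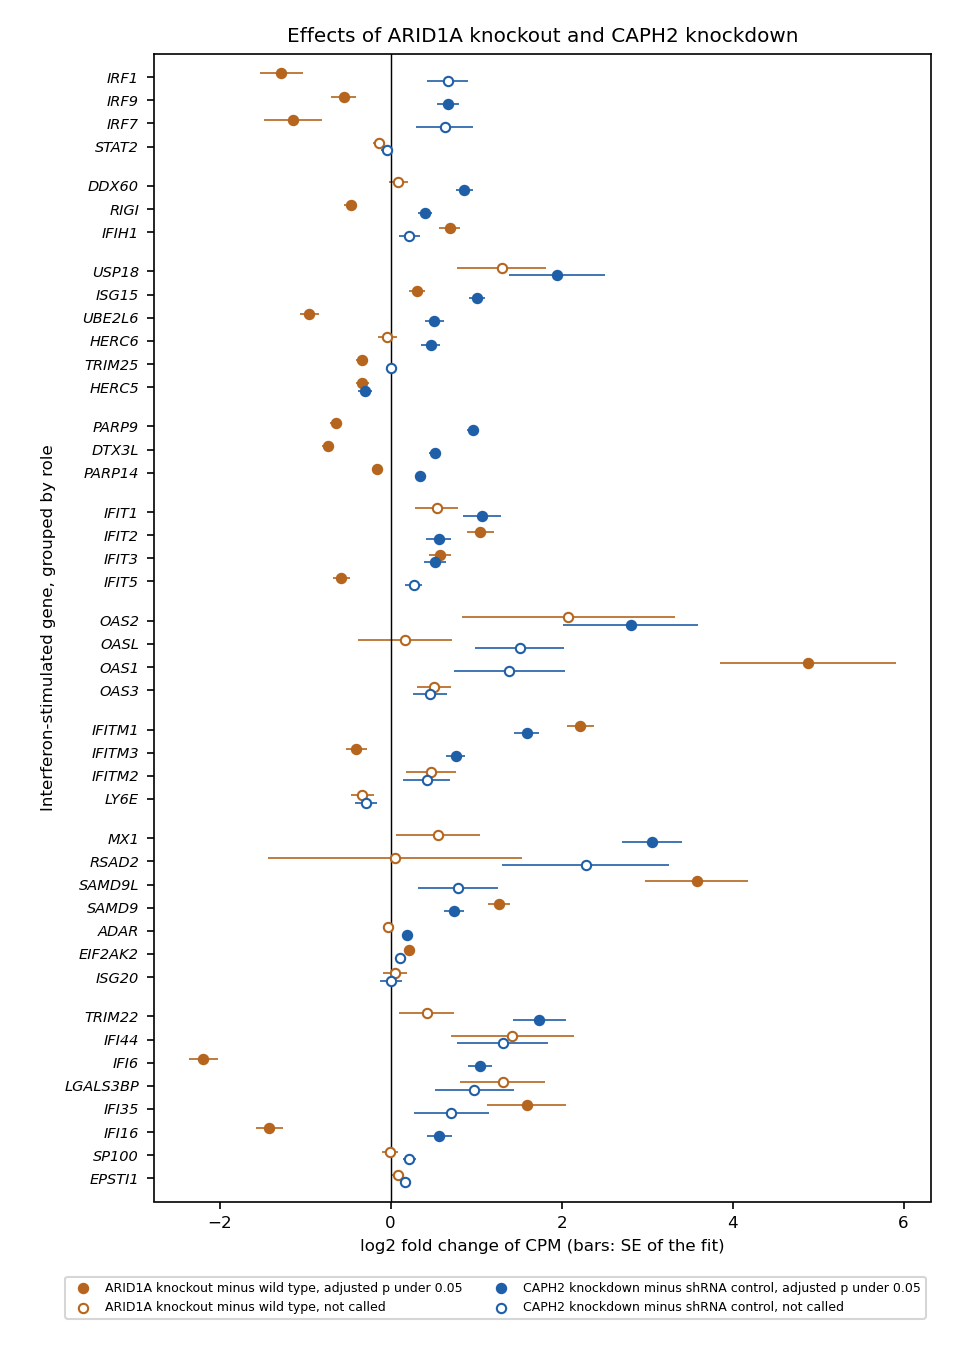
For each of the 43 tested genes, grouped by role, orange points give the log2 fold change of the knockout minus wild type and blue points that of the knockdown minus shRNA control. With the SE of the fit as bars and genes called at an adjusted p under 0.05 as filled points, blue points lie to the right of 0 for 39 genes and orange points on both sides.

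The effects of knockout and knockdown were compared gene by gene in the same fit, on libraries that neither effect shares with the other. Where the difference was called, the knockout effect was lower than the knockdown effect in 17 of the 43 genes (39.5%) and higher in 2. Over all genes, 14.0% had a lower and 12.3% a higher knockout effect, 26.3% in either direction. The median of the difference over the module was −0.50. DESeq2 called 16 lower and 0 higher, beside 1884 and 1690 of the 29952 counted genes. An unadjusted p under 0.05 held for 19 lower and 6 higher, and its share over all genes was not counted.

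Genes that fell in the knockout and rose in the knockdown numbered 9 of 43: IFI6, IRF9, RIGI, IFITM3, IFI16, PARP9, PARP14, DTX3L and UBE2L6. Over all genes 2.12% had that pattern of calls. The module also had more falls in the knockout (32.6% beside 17.8%) and more rises in the knockdown (51.2% beside 7.62%) than all genes. More such pairs can therefore arise from unrelated effects, and an overlap beyond that was not tested. The 9 genes were picked by opposite calls in the same fit, so a called difference was nearly fixed in advance. The difference between the effects was called for each of the 9 genes, which is no separate support for the pattern. It was −3.23 ± 0.22 for IFI6 (edgeR adjusted p = 1.12e-06), −1.99 ± 0.22 for IFI16 (4.96e-05) and −1.60 ± 0.10 for PARP9 (5.9e-07). For UBE2L6, DTX3L and IRF9 it was −1.45, −1.25 and −1.22, and for IFITM3, RIGI and PARP14 −1.16, −0.87 and −0.50, all on the log2 scale. These 9 differences were called again when each of the 8 libraries was left out in turn, although some of the single effects were not. The group holds a sensor (RIGI), a transcription factor (IRF9), an ISG15 enzyme (UBE2L6), a DNA sensor (IFI16) and the PARP9 complex. The 2 control groups differed for some of these genes. The shRNA control was called lower than wild type for IFI16, PARP9 and UBE2L6 (log2 fold changes of −0.50, −0.31 and −0.36) and higher for IRF9 (0.61). IFI16 in the knockdown, at 12.3 and 11.1 CPM, overlapped wild type at 10.9 and 11.4 CPM.

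ISG15, IFIT2, IFIT3, IFITM1 and SAMD9 rose in both, 5 of 43, where 2.06% of all genes did. The module had more rises than all genes in each comparison, 23.3% beside 16.8% in the knockout and 51.2% beside 7.62% in the knockdown. More shared rises can therefore arise from unrelated effects, and an overlap beyond that was not tested. ISG15 rose less in the knockout, with a difference of −0.70 ± 0.13 (edgeR adjusted p = 0.00193). For IFIT2, IFIT3 and IFITM1 the differences of 0.50, 0.07 and 0.63 were not called (edgeR adjusted p of 0.13, 0.841 and 0.057). That of SAMD9 was 0.54 ± 0.18 (edgeR adjusted p = 0.0433), which DESeq2 did not call (0.105) and which was lost without 6 of the 8 libraries in turn, namely the second wild-type (0.128), the first and second knockout (0.142 and 0.0596), the first shRNA control (0.178) and the first and second knockdown library (0.133 and 0.0648). HERC5 fell in both comparisons, which 2.79% of all genes did. The difference between its effects was −0.03 and was not called (edgeR adjusted p = 0.895), and its window of 250 bases holds 3 matches to the ISRE core. By group means HERC5 was highest in wild type and lowest in the knockdown.

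Another 8 genes rose in the knockdown and were not called in the knockout: MX1, IFIT1, OAS2, DDX60, HERC6, USP18, TRIM22 and ADAR. The difference itself was called for MX1 (−2.51 ± 0.62, edgeR adjusted p = 0.0114), DDX60 (−0.76 ± 0.15, 0.00282) and HERC6 (−0.51 ± 0.16, 0.0346), and was not called for the other 5. Without the second wild-type library the difference for MX1 was −1.49 (adjusted p = 0.216). For HERC6 it was lost without the second wild-type (0.0926), the first or second knockout (0.0617 and 0.117), the first or second shRNA control (0.0766 and 0.112) or the first knockdown library (0.16). IFIT5, IRF1, IRF7 and TRIM25 fell in the knockout and were not called in the knockdown, and the difference was called for each, at −0.85, −1.94, −1.77 and −0.34. The difference for IRF7 missed the threshold without the second wild-type library (0.0783) and without the first shRNA control library (0.055). OAS1, IFIH1, IFI35, SAMD9L and EIF2AK2 rose in the knockout and were not called in the knockdown. The difference was called for SAMD9L, at 2.79 ± 0.79 (edgeR adjusted p = 0.022), and not for OAS1, IFIH1, IFI35 or EIF2AK2 (edgeR adjusted p of 0.0761, 0.0659, 0.363 and 0.308). The difference for SAMD9L was lost without the second wild-type (0.0738), the first or second knockout (0.0559 and 0.0581), the second shRNA control (0.106) or the first or second knockdown library (0.0622 and 0.0521). The remaining 11 genes were called in neither comparison: ISG20, IFI44, OAS3, OASL, STAT2, RSAD2, IFITM2, SP100, EPSTI1, LY6E and LGALS3BP. How many of all genes were called in 1 comparison only, or in neither, was not counted. These groups therefore have no share over all genes beside them.

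**Figure D4:**
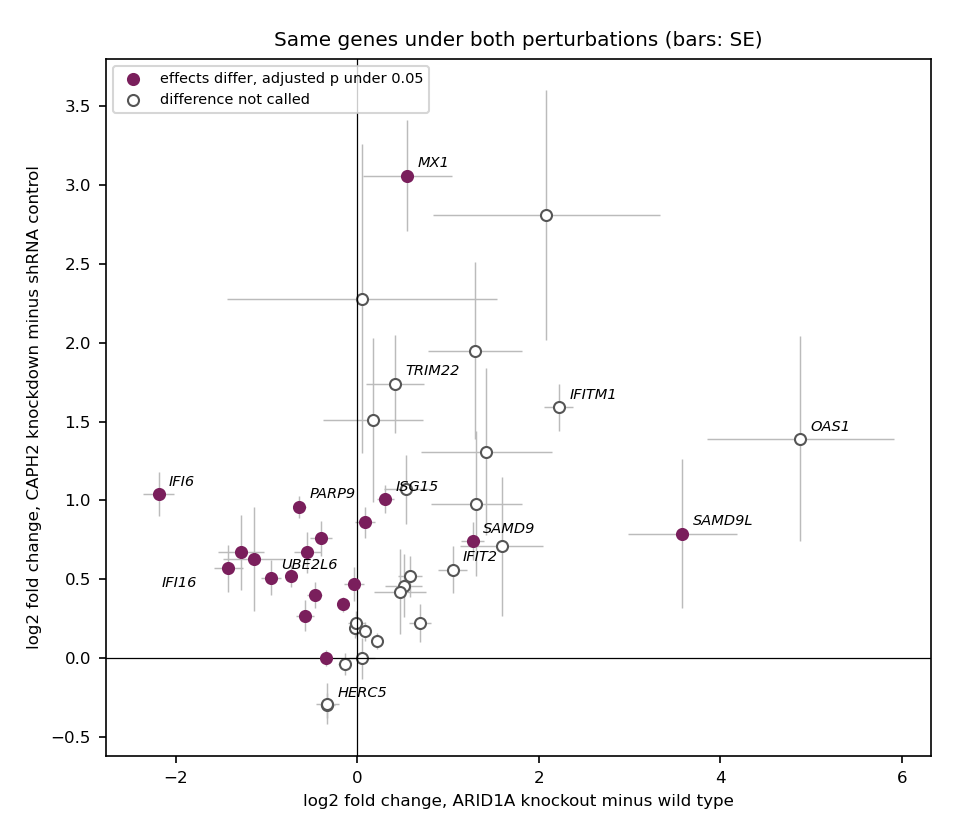
Each point is 1 of the 43 tested genes, with the log2 fold change of the knockout on the x axis, that of the knockdown on the y axis and the SE of the fit as bars. Filled points are the 19 genes whose effects differed at an adjusted p under 0.05, and most of them lie at the upper left.

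The shRNA control and the wild type both have ARID1A and CAPH2 intact, and their difference shares its libraries with the comparisons above. The shRNA control was higher for 11 of the 43 genes (25.6%) and lower for 4 (9.3%), where 9.13% of all genes were higher and 10.1% lower, 19.2% in either direction. Both shRNA control libraries lay above both wild-type libraries for 18 genes (28.8% of all genes did) and below them for 11 (28.7%). DESeq2 called 6 higher and 2 lower, beside 1241 and 1377 of the 29952 counted genes. EPSTI1, an interferon-induced gene of epithelial cells, was at 30.9 and 29.4 CPM in wild type and at 56.1 and 54.5 CPM in the shRNA control, a log2 fold change of 0.88 ± 0.06 (edgeR adjusted p = 6.88e-06). STAT2 was at 30.5 and 31.5 CPM in wild type and at 39.3 and 41.1 CPM in the shRNA control, a log2 fold change of 0.38 ± 0.07 (edgeR adjusted p = 0.0033). Those were the 2 genes whose call held when each of the 4 libraries was left out in turn. The other 13 calls were IFI44, IFIT1, IFIT3, OAS1, IRF9, IFITM1, SP100, SAMD9 and SAMD9L, higher in the shRNA control, and HERC5, IFI16, PARP9 and UBE2L6, lower in it. They lost the call without at least 1 library, at adjusted p-values of 0.0509 to 0.284. With the shRNA control as the reference of the knockout, 7 of the 43 genes were called higher and 16 lower (20.9% of all genes in each direction). With wild type as the reference of the knockdown, 28 were called higher and 1 lower (14.8% and 15.5% of all genes).

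Genes upstream of the module were described from a list of 31 ligands, receptors, kinases, sensors, adaptors and feedback regulators, of which 21 were tested. In the knockdown 5 of the 21 rose (23.8%, beside 7.62% of all genes) and 3 fell (14.3%, beside 8.22%). In the knockout 2 rose (9.52%, beside 16.8%) and 7 fell (33.3%, beside 17.8%). No count of IFNA1, IFNB1, IFNK, IFNL1, IFNL2, IFNL3 or IFNG was found in any of the 8 libraries, and IFNE, an interferon of epithelia, was at 0.531 to 1.97 CPM. IFNAR2, a chain of the receptor, was at 3.68 and 4.61 CPM in the shRNA control and at 6.53 and 6.48 CPM in the knockdown, a log2 fold change of 0.65 ± 0.19 (edgeR adjusted p = 0.0427), and STAT3 had a log2 fold change of 0.63 ± 0.05 (edgeR adjusted p = 9.61e-06). In the knockout SOCS3, a feedback inhibitor of JAK kinases, fell from 143.1 and 137.3 CPM to 67.5 and 64.8 CPM, a log2 fold change of −1.08 ± 0.05 (edgeR adjusted p = 5.68e-08). TLR3, an endosomal sensor of double-stranded RNA, rose by 0.92 ± 0.20 (edgeR adjusted p = 0.00392) and JAK2 fell by 0.73 ± 0.19 (0.0102) on the log2 scale. IFNAR2 was called lower in the knockout, at a log2 fold change of −0.70 (edgeR adjusted p = 0.0207).

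A list of 36 further interferon-stimulated genes, of which 31 were tested, had 9 rises and 0 falls in the knockdown by edgeR, 7 and 0 by DESeq2, and 15 and 0 at an unadjusted p under 0.05. Over all genes 7.62% rose and 8.22% fell in the knockdown by edgeR, and the share at an unadjusted p was not counted. In the knockout the list had 10 rises (32.3%, beside 16.8% of all genes) and 6 falls (19.4%, near the 17.8% of all genes). TRIM34 went from 1.24 and 0.977 CPM in the shRNA control to 4.51 and 6.84 CPM in the knockdown, a log2 fold change of 2.36 ± 0.33 (edgeR adjusted p = 0.000483). STAT4 had a log2 fold change of 2.30 ± 0.55 (edgeR adjusted p = 0.0145) and TRIM14 of 1.01 ± 0.30 (0.04) in the same comparison. In the knockout IFI30, TRIM34 and LAMP3 were named by the size of their fitted change. LAMP3 had 0 counts in both wild-type libraries and 12 and 16 in the knockout. Its knockout level was 6.47 times that of 3 counts over the wild-type group, with the knockout counts taken as exact. LAMP3 passed the level of the filter only in the knockout libraries. IFI30, a lysosomal thiol reductase, was at 0.124 and 0.0724 CPM in wild type and 4.69 and 6.16 CPM in the knockout, a log2 fold change of 5.76 ± 0.37 (edgeR adjusted p = 4.2e-07). TRIM34 rose there by 2.95 ± 0.40 on the log2 scale (edgeR adjusted p = 0.00015). TRIM34 lies in a cluster of close relatives with a readthrough transcript, so its level is uncertain.

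The genes whose promoter window held the ISRE core were set beside those whose window did not, as a description. Of 20 tested genes with a match, 11 rose (55.0%) and 1 fell in the knockdown, with a median log2 fold change of 0.81. Of 15 without one, 7 rose (46.7%), with a median of 0.51, and 7.62% of all genes rose. In the knockout, where 16.8% of all genes rose and 17.8% fell, 5 rose (25.0%) and 6 fell (30.0%) with a match (median 0.20). Without one 4 rose (26.7%) and 7 fell (46.7%), with a median of −0.14. Both kinds of gene held rises and falls in the knockout.

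The tested genes next to each called gene were described as well. Up to 20 on each side had median log2 fold changes between −0.44 and 0.25 in the knockout and between −0.10 and 0.20 in the knockdown. After subtracting that median, 24 of 24 called members in the knockout and 23 of 23 in the knockdown had the same sign. Medians this near 0 make that close to fixed for genes called by their change, and the share over all called genes was not counted. Little remained for some genes in the knockout, such as −0.09 for PARP14 and 0.06 for EIF2AK2.

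The 5 genes under the filter had few counts, and no test was made of them. XAF1, a promoter of apoptosis, had 0 counts in both shRNA control libraries and 7 and 5 in the knockdown. Its knockdown level was 4.34 times that of 3 counts over the shRNA control group. That ratio takes the knockdown counts as exact, so it is not a lower bound. BST2, which tethers budding virus, had 0 counts in the shRNA control and 5 and 3 in the knockdown, a ratio of 2.9 on the same terms. BST2 had 1 and 2 counts in wild type and 2 and 7 in the knockout. Both genes were thus seen in the knockdown libraries and not in their controls. For IFI44L the ratio of the knockdown to the shRNA control was 5.07 with an exact 95% counting interval of 1.41 to 27.5. For IFI27 it was 3.62 (0.932 to 20.5) and for CMPK2 4.34 (0.867 to 42.0), intervals that include 1. A count above 0 was found for 48 of the 48 genes in each knockdown library and for 42 to 46 in the other 6 libraries.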

How the data were processed

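The 48 genes, the gene lists and the tests were chosen with earlier results of these data known, and no choice is independent of them. Groups came from the labels, 2 libraries each, and the labels do not say that these were separate cultures. The p-values therefore reflect the spread between the 2 libraries of a group, pooled over the 4 groups and drawn towards that of other genes. That spread is possibly a technical one. Per the labels' protocols, RNA was isolated with Trizol and DNase-treated, and libraries were made with the TruSeq Total RNA kit.

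The authors deposited a table of expected counts per Ensembl gene, 1 column per library. Per the submitters' processing notes, Bowtie2 and RSEM 1.2.12 were used on hg19. Not given in the sources used here are the Bowtie2 version, the annotation and the strand setting. All expected counts in the deposited table were already whole. RSEM shares reads among genes they match, so values of near copies and overlapping genes are uncertain.

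The test across genes used edgeR 4.0.16 in R 4.3.3: filterByExpr by group (16657 of 29952 counted genes kept), TMM scaling, the quasi-likelihood F-test on group means, fitted to all 8 libraries (4 residual degrees of freedom, common biological coefficient of variation 7.74%) and Benjamini-Hochberg adjustment over all genes tested. The SE is the log2 fold change divided by the root of F. The code was tested on simulated data. Alternatives were other scaling (RLE), no filter, DESeq2 1.42.0, a replicate block, the compared groups alone, the other control group and each library left out. Symbols came from a name table (51959 IDs) and GENCODE 29 (342 IDs), which on GRCh38 also gave exon lengths, neighbours and overlaps. IKBKE, CCL5 and PECAM1 are not analysed here, and some other genes of the lists are not reported here. Counting intervals and floors (3 counts) cover counting error only.

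Full statistics are given in the knockout and the knockdown for called genes of at least 1 CPM with the 8 largest absolute changes. They are also given for up to 2 called genes of each role group with at least 2, and for genes called in opposite directions. Further genes were added where the text needs them. For the difference of the effects and the shRNA control against wild type, only some called genes have them. The 3 called genes with the largest absolute change are named from each of the 2 other interferon lists.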

Additional observations from a re-analysis of the deposited data

How the results depend on the processing

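With 2 libraries per group and 4 residual degrees of freedom, small changes depend on single libraries, and values under about 1 CPM rest on few counts. No change of setting turned the direction of a called gene. With RLE scaling 10 genes of the module were called higher and 14 lower in the knockout, beside 2818 and 2891 of all genes. In the knockdown these were 22 and 1, beside 1276 and 1359. Without the filter the knockout had 12 and 13, beside 2925 and 3068, and the knockdown 24 and 1, beside 1532 and 1545. With the 4 compared libraries fitted alone, 9 were higher and 11 lower in the knockout, beside 2330 and 2516 of all genes. In the knockdown 26 were higher and 2 lower, beside 1693 and 1798. Fitted in that way, the shRNA control was higher than wild type for 4 genes and lower for 1, and over all genes higher for 1123 and lower for 1086. DESeq2 gave 0 genes with a higher knockout than knockdown effect, and 6 higher and 2 lower in the shRNA control. The cause of these shifts was not tested.

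Leaving out 1 library at a time gave, in the knockout, 9 to 11 higher and 9 to 14 lower genes of the module, and over all genes 1852 to 2760 higher and 2076 to 2891 lower. In the knockdown these ranges were 12 to 16 and 0 to 1, and 623 to 710 and 737 to 814. For the difference of the effects they were 0 to 2 and 15 to 19, and 1508 to 2326 and 1732 to 2463. For the shRNA control against wild type they were 4 to 9 and 0 to 2, and 784 to 1633 and 760 to 1777. The lone library of a group was then assumed to vary like the others.

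The labels link same-numbered libraries of different groups by the number only. Deviations of these libraries from the group means correlated at −0.0239 to 0.0296, which does not show whether they shared a culture or a preparation. With the replicate number as a block, 10 genes of the module rose and 13 fell in the knockout, 21 rose and 1 fell in the knockdown, 2 and 17 differed higher and lower, and 10 and 3 were called in the shRNA control. Over all genes the block gave 2673 rises and 2827 falls in the knockout and 1190 and 1293 in the knockdown. For the difference it gave 1967 higher and 2242 lower, and for the shRNA control 1448 and 1578. With it, PARP14 in the knockout (adjusted p = 0.0521), OAS2 and ADAR in the knockdown (0.0513 and 0.052) and SP100 and UBE2L6 in the shRNA control (0.0594 and 0.0572) missed the threshold.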
